A study of Homo sapiens with 6 samples.

Results

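Collagen chain genes were taken as the rows of the deposited count table whose gene name is COL, a number, A and a number, and 44 of the 26334 genes in the table met this rule. They were sorted by the kind of protein they encode into 11 fibrillar, 6 type IV basement membrane, 5 type VI, 4 transmembrane and 10 fibril-associated (FACIT) genes, 2 multiplexin genes, 1 gene for anchoring fibrils, 3 for short-chain networks and 2 others. The libraries came from MCF10DCIS.com (MCF10DCIS), a human breast line of the MCF10 series that grows as lesions resembling ductal carcinoma in situ in mice. Control cells (shLuc, n = 3) carried a U6-driven shRNA against luciferase, and silenced cells (shWDR5, n = 3) carried the same vector with shRNA against WDR5, the WD-repeat subunit shared by the MLL and SET1 histone H3 lysine methyltransferases. Both groups were infected, selected with 3 µg/ml puromycin and grown in DMEM/F12 with 5% horse serum. The vector of both groups also carries TagRFP and a puromycin resistance gene. The study's methods describe pooled WDR5 shRNAs for MCF10DCIS cells transplanted into mice. Its RNA sequencing methods do not say how many hairpins the sequenced cells carried. All libraries come from 1 line, and off-target effects of the hairpins cannot be told apart from those of WDR5 loss. Nothing in the labels says whether replicates were separate infections, so p-values measure only the spread between these samples.

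Collagens are trimers of chains with glycine recurring along each chain, which wind into a stiff rod. Fibrillar chains build the ropes of stromal matrix, whereas type IV chains form the sheet that underlies every epithelium. The transmembrane collagen of hemidesmosomes ties basal epithelial cells to that sheet, and type VII anchoring fibrils tie the sheet to the stroma beneath. In the normal breast, stromal fibroblasts make most fibrillar collagen, and the basal (myoepithelial) cell layer contributes much of the basement membrane.

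Total counts ranged from 38218108 to 57640167 reads per library. WDR5 itself stood at 52.6, 48.5 and 51.3 CPM in shLuc and 23.4, 24.4 and 20.8 CPM in shWDR5 (replicates 1, 2 and 3 in order, here and below). All silenced libraries lay below all controls, a 2.22-fold reduction (log2 fold change -1.15, SE 0.074, edgeR adjusted p = 8.67e-07). CPM are counts per 1000000 reads of TMM-scaled library size, and the adjusted p of edgeR's quasi-likelihood test (Benjamini-Hochberg over all 16117 genes that passed the low-count filter) was called below 0.05. The basal epithelial markers had a high summed level in all libraries, 2776 to 3014 RPKM (CPM per 1000 exonic bases) in shLuc and 4618 to 5272 RPKM in shWDR5. Much of the shLuc sum was KRT17 (mean 1372 RPKM) and ITGB4 (705 RPKM), while TP63 averaged 14.8 RPKM. Of the 9 genes on this list, 7 were called higher and 2 lower, beside 26.6% and 29.9% of all genes tested. The 2 were CDH1 and EPCAM, which are epithelial adhesion genes. Of 8 fibroblast markers, 4 passed the filter, of which 2 (FAP and COL1A1) were called lower and none higher. Their summed level was 16.5 to 19.6 RPKM in shLuc and 13.4 to 13.9 RPKM in shWDR5. The stromal genes LUM and DCN had no read in any shLuc library, with LUM also at 0 and DCN at 0, 2 and 0 reads in the shWDR5 libraries. Of 5 endothelial markers, 3 passed, of which 1 was called lower and none higher (1.76 to 1.88 RPKM in shLuc, 1.17 to 1.31 RPKM in shWDR5). Of 5 leukocyte markers, 2 passed, and 1 was lower and none higher (6.58 to 7.93 RPKM in shLuc, 6.07 to 7.18 RPKM in shWDR5, with CD3E at 0 reads throughout). All libraries come from 1 cultured line, so these sums are RNA levels in that line and do not count stromal, endothelial or immune cells. In shLuc, FAP alone averaged 14.4 RPKM of the fibroblast sum, PECAM1 1.46 of the endothelial sum and CD68 6.39 of the leukocyte sum. In bulk libraries such as these, fewer cells expressing a gene and less RNA per cell cannot be told apart.

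Collagen mRNA in these cells came mostly from network, hemidesmosome and fibril-surface genes, with little from the main interstitial chains. On the per-length scale, the highest levels in shLuc were those of COL8A1 (84.4 ± 3.76 RPKM, mean ± SD, n = 3), COL17A1 (81.5 ± 1.34), COL12A1 (67.0 ± 0.284), COL9A3 (57.6 ± 0.875), COL4A2 (51.6 ± 2.72) and COL16A1 (45.6 ± 1.11). COL8A1 and COL17A1 differed by less than the SD of COL8A1, and from COL17A1 to COL16A1 the neighbours in this order lay apart by more than either SD. COL18A1, COL4A1 and COL4A5 followed at 20.7 ± 1.27, 16.0 ± 0.729 and 14.7 ± 0.545 RPKM. By contrast, the classical interstitial chains were low or missing. COL1A1 stood at 3.72 ± 0.114 RPKM, while its usual partner COL1A2 had no read in any shLuc library. COL3A1 had 1 read in all 6 libraries together, and COL5A1 had 1 read in shLuc.

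**Figure D1:**
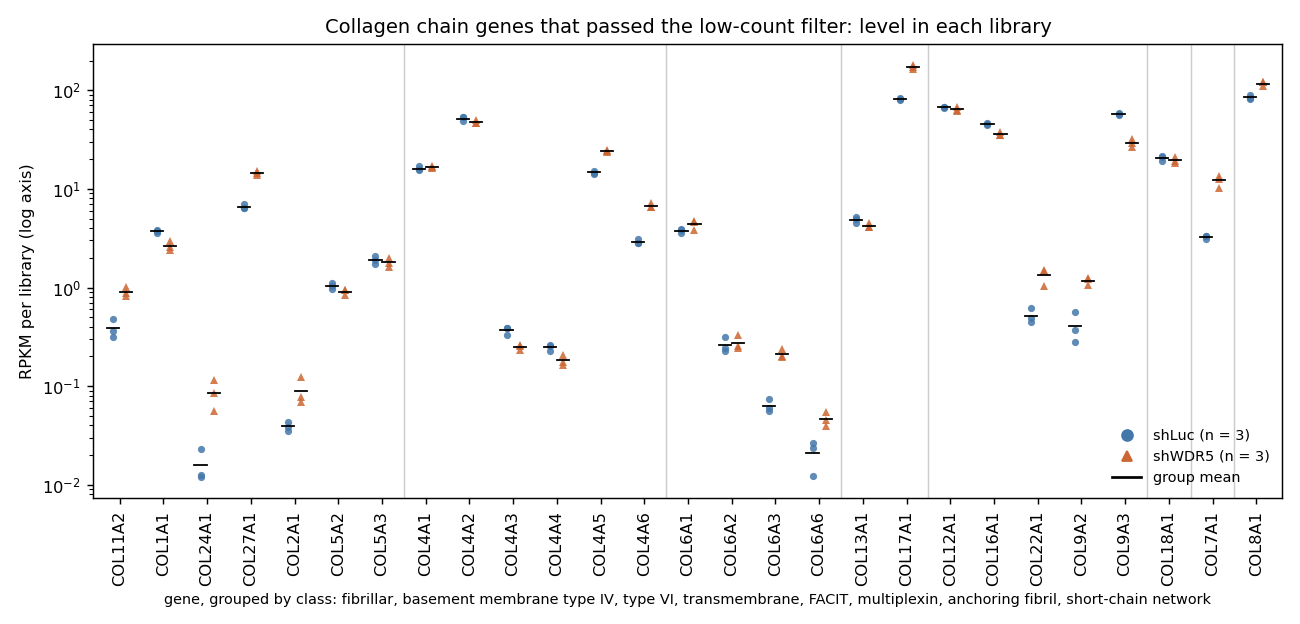
RPKM per library on a log axis for the 27 collagen chain genes that passed the low-count filter, grouped by class with vertical lines, with circles for the 3 shLuc libraries, triangles for the 3 shWDR5 libraries and bars for group means. The points span from 0.0119 RPKM (COL24A1 in shLuc replicate 2) to 182 RPKM (COL17A1 in shWDR5 replicate 1), and the triangles of COL17A1, COL7A1, COL27A1 and COL4A6 lie clear above the circles.

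Summed over all 44 genes, collagen mRNA stood at 469.6 ± 9.64 RPKM in shLuc and 579 ± 23.2 RPKM in shWDR5, and the groups did not overlap. Most of this gain came from COL17A1, which went from 81.5 to 173 RPKM. The same sum over all genes in the table was also higher without overlap, at 385068 to 401809 RPKM in shLuc and 405957 to 422189 RPKM in shWDR5. The make-up of collagen mRNA by class differed. The transmembrane class, nearly all of it COL17A1, held 18.4% ± 0.509 of collagen mRNA in shLuc and 30.6% ± 0.224 in shWDR5. FACIT genes held 36.5% ± 0.597 and then 22.8% ± 0.703, type IV genes 18.3% ± 0.403 and then 16.5% ± 0.204, and fibrillar genes only 2.92% ± 0.0539 and then 3.59% ± 0.0599. These shares sum to 100%, so a gain in 1 class lowers the shares of the others, and they were given no test. In summed RPKM, type IV genes did not fall. They stood at 81.8 to 88.9 RPKM in shLuc and 93.6 to 99.5 RPKM in shWDR5. FACIT genes fell in summed RPKM too, from 170.3 to 171.6 RPKM in shLuc to 128.7 to 136.2 RPKM in shWDR5.

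**Figure D2:**
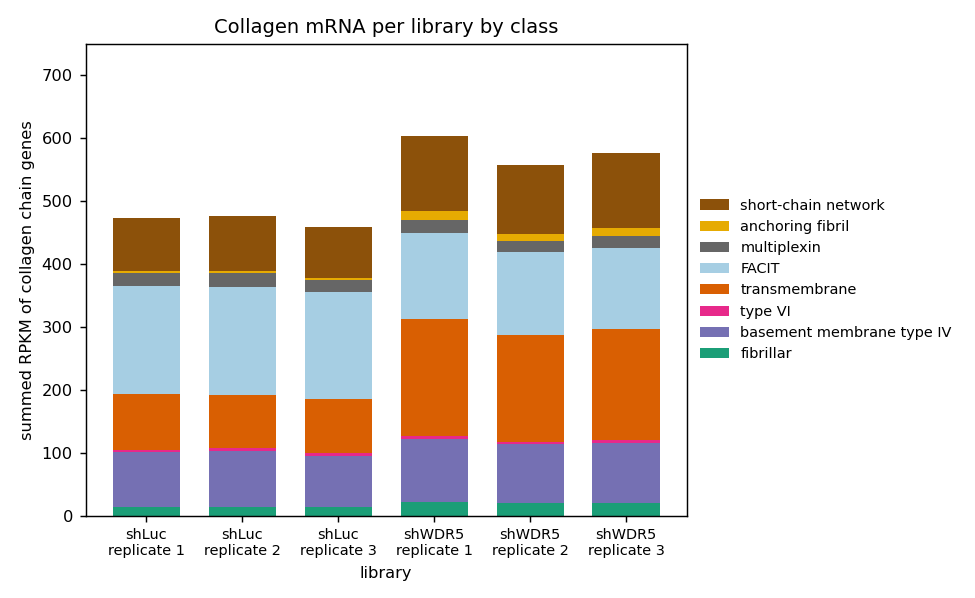
Summed RPKM of collagen chain genes in each of the 6 libraries, stacked by class from 0 (the class of 2 other genes, below 0.1 RPKM, is left out). The total stands at 459 to 477 RPKM in shLuc and 558 to 604 RPKM in shWDR5, and the widest gain is that of the transmembrane segment, which is mostly COL17A1.

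Of the 44 genes, 27 passed the filter, and of these 13 were called higher in shWDR5, 5 lower and 9 neither. Over all genes tested, 26.6% were called higher and 29.9% lower. COL24A1, COL2A1 and COL6A6 passed only through their shWDR5 libraries, so that a difference was built into their being tested. Without these 3, 10 of 24 were called higher (41.7%) and 5 lower (20.8%). The median log2 fold change of the 24 was 0.054 (0.22 with the 3 included), beside -0.011 over all genes tested. With the thresholds the study used for its own gene lists (adjusted p below 0.05, absolute log2 fold change of at least 0.6 and over 0.5 RPKM), 8 collagen chain genes were higher, beside 7.09% of all genes tested, and 1 was lower, beside 10.1%. The 8 were COL17A1, COL7A1, COL4A5, COL4A6, COL27A1, COL11A2, COL22A1 and COL9A2, and the 1 was COL9A3.

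**Figure D3:**
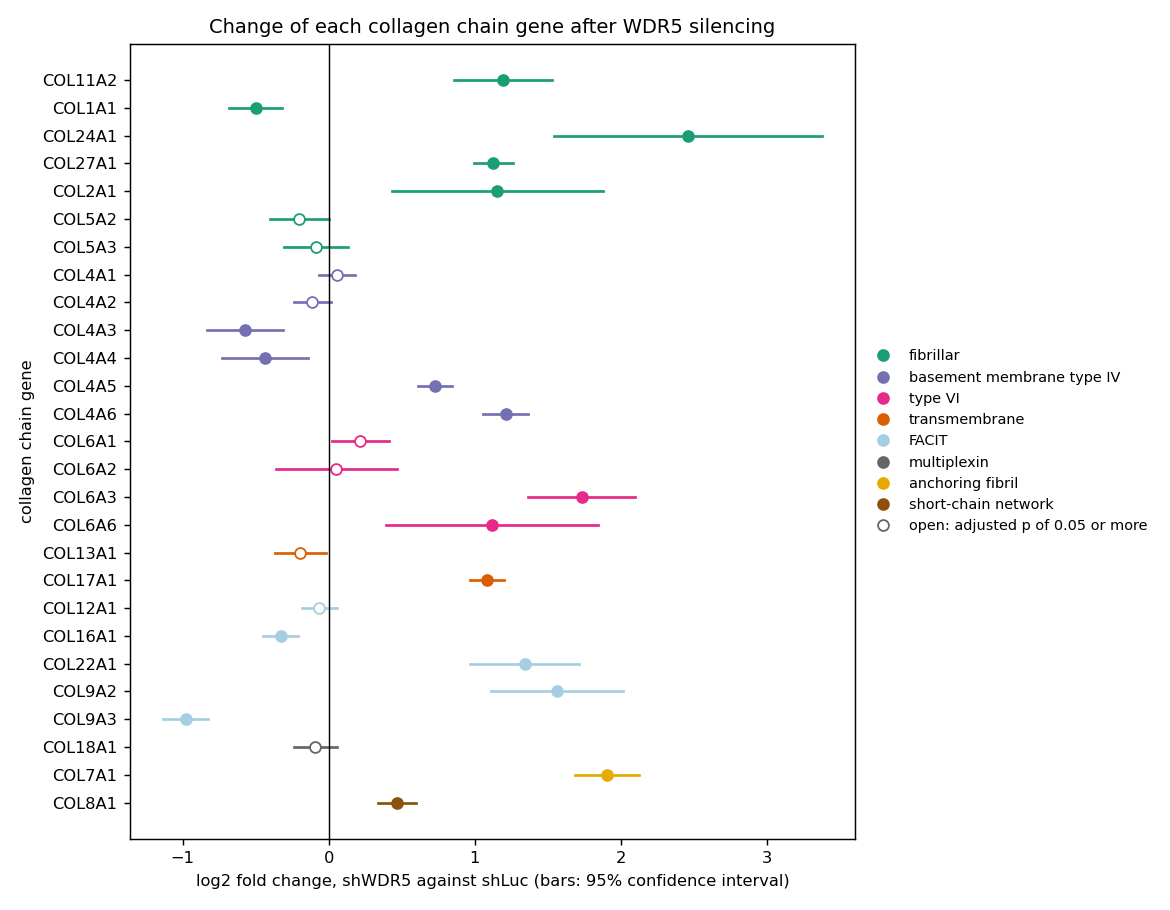
Log2 fold change (shWDR5 against shLuc) with its 95% confidence interval for the 27 collagen chain genes tested, coloured by class, with filled points for adjusted p below 0.05 and open points otherwise. Changes run from -0.98 (COL9A3) to 2.46 (COL24A1), and type IV and FACIT genes lie on both sides of 0.

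The hemidesmosome and anchoring fibril collagens both rose, and the other transmembrane gene tested, COL13A1, was not called. COL17A1 encodes the transmembrane collagen (BP180) that links hemidesmosomes to the basement membrane (hg19 chr10:105791046-105845638, minus strand). It stood at 464, 449 and 459 CPM in shLuc and 1019.5, 929 and 963 CPM in shWDR5. The groups were far apart, with a 2.12-fold rise (log2 fold change 1.09, SE 0.053, edgeR adjusted p = 2.03e-07). The gene went from 17.4% to 29.9% of collagen mRNA. COL7A1, the single gene of the anchoring fibrils that hold the basement membrane to the tissue beneath (hg19 chr3:48601506-48632593, minus strand), was at 30.8, 30.4 and 28.3 CPM in shLuc and 125, 93.7 and 117 CPM in shWDR5. It rose 3.74-fold (log2 fold change 1.90, SE 0.10, edgeR adjusted p = 2.72e-07), with replicate 2 the lowest of the silenced libraries and far above all controls. Among the 7 basal markers that were also higher, KRT14 was 2.44-fold and ITGB4, the hemidesmosomal integrin subunit, 1.54-fold up (log2 fold change 1.29, SE 0.088, edgeR adjusted p = 1.36e-06, and log2 fold change 0.63, SE 0.071, edgeR adjusted p = 3.52e-05). The epithelial adhesion genes CDH1 and EPCAM of the same list fell 2.05-fold and 1.26-fold (log2 fold change -1.03, SE 0.053, edgeR adjusted p = 2.64e-07, and log2 fold change -0.33, SE 0.075, edgeR adjusted p = 0.00317). The part of these markers in the collagen result was not tested. COL13A1, found at cell adhesion sites, was at 16.1, 15.6 and 14.1 CPM in shLuc and 14.1, 12.8 and 13.0 CPM in shWDR5 and was not called (log2 fold change -0.20, 95% interval -0.37 to -0.022, edgeR adjusted p = 0.0541). Without shLuc replicate 3 or shWDR5 replicate 1 it was called lower (edgeR adjusted p = 0.0231 and 0.0341). COL23A1 and COL25A1 had at most 4 reads in any library.

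Since both genes rose, the 250 bases before their RefSeq starts are shown (GRCh38.p14, given 5′ to 3′ on the minus strand, on which both genes lie), with TATAAA on either strand in capitals. The COL17A1 stretch (chr10:104085881-104086130) holds 1 CpG and the COL7A1 stretch (chr3:48595330-48595579) 11, with 40.4% and 60.8% G+C. Over all RefSeq windows, which are longer at 300 bases, the medians were 14 CpG and 58.7% G+C. A link of these stretches to the rise of the genes was not tested. The marked letters begin 206 bases before the COL17A1 start and 124 bases before the COL7A1 start, in COL7A1 on the opposite strand.
COL17A1: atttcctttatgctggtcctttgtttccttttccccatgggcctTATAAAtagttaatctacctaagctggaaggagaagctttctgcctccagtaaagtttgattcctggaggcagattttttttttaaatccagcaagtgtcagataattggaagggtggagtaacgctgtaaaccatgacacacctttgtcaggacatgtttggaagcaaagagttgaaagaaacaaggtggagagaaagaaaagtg
COL7A1: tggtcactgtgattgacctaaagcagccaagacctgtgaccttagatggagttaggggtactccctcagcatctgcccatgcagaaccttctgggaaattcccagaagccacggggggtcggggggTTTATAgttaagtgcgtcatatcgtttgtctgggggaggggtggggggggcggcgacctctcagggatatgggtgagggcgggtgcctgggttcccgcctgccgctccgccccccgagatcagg
TATAAA, searched on both strands, was found in 11.5% of 35116 RefSeq windows of 300 bases (250 before to 50 after each start). It was found in 7 of the 32 collagen chain genes with a window. Of these 7, COL17A1 and COL7A1 were called higher. COL6A6 was also called higher, but it passed the filter only through its shWDR5 libraries. COL13A1, COL18A1 and COL6A2 were not called, and COL10A1 was below the filter. GGGCGG was found in 21 of the 32 (45.0% of all windows), the AP-1 letters TGANTCA in 1, COL10A1 (7.71% of all windows), and the E-box CACGTG in 0 (7.26% of all windows). A gene was counted if any of its windows held the motif, whereas the percentages are shares of windows. These are unlike measures, and a gene with several windows has more chances of a match. None of these motifs contains another, and a match is a description only.

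Of the 6 type IV genes, 2 were called higher, 2 lower and 2 neither, beside 26.6% of all genes tested called higher and 29.9% lower. The 6 genes lie as 3 head-to-head pairs, each pair sharing the stretch between its starts, with 126 bases between COL4A1 and COL4A2 on chromosome 13, 5 between COL4A4 and COL4A3 on chromosome 2 and 346 between COL4A6 and COL4A5 on chromosome X in the gene models of the count table (hg19). COL4A1 and COL4A2, whose chains form the trimer of nearly all basement membranes, were not called. COL4A3 and COL4A4, whose chains join that of COL4A5 in basement membranes of kidney and lung, fell at low levels. COL4A5 and COL4A6, whose chains form a trimer of epithelial and smooth muscle basement membranes, both rose. Both genes of each pair thus had the same call, but that of COL4A4 was lost in some refits. With only 3 pairs this is a description, and whether pairs change together was not tested. To show how the 3 shared stretches differ, the bases that lie between both RefSeq starts and within 250 bases of each (RefSeq starts that leave 126, 418 and 379 bases between them) are given below on the plus strand (GRCh38.p14), with CCAAT on either strand in capitals.
COL4A1 and COL4A2, chr13:110307158-110307283: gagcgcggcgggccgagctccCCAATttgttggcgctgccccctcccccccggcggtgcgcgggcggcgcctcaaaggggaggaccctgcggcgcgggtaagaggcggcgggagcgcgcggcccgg
COL4A4 and COL4A3, chr2:227164374-227164455: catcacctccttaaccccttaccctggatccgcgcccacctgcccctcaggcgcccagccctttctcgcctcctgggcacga
COL4A6 and COL4A5, chrX:108439588-108439708: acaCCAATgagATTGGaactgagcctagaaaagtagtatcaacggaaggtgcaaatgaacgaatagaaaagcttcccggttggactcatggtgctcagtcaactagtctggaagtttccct
The COL4A1 and COL4A2 stretch was 80.2% G+C with 20 CpG in 126 bases. That of COL4A4 and COL4A3 was 67.1% G+C with 5 CpG in 82 bases. That of COL4A6 and COL4A5 was 44.6% G+C with 3 CpG in 121 bases. Only the COL4A1 and COL4A2 stretch is the whole gap between its starts. The stretches are thus unlike regions, and a link of their make-up to the changes was not tested. CCAAT, searched on both strands, occurred 1 and 2 times in them and 0 times in the 82 bases shown for COL4A4 and COL4A3, and it was found in 34.6% of all RefSeq windows.

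COL4A1 was at 117, 126 and 116 CPM in shLuc and 127, 120.1 and 125 CPM in shWDR5, with overlapping groups (log2 fold change 0.056, 95% interval -0.069 to 0.18, edgeR adjusted p = 0.428). COL4A2 was at 332, 333 and 303 CPM in shLuc and 313, 292 and 292 CPM in shWDR5, with overlap (log2 fold change -0.11, 95% interval -0.24 to 0.015, edgeR adjusted p = 0.121). It was called lower without shLuc replicate 3 (edgeR adjusted p = 0.0328) and with library size as the sole scaling (0.0207). Both intervals exclude a change of 1.5 times. COL4A3 was at 3.18, 3.15 and 2.70 CPM in shLuc and 1.90, 2.09 and 2.07 CPM in shWDR5, without overlap (log2 fold change -0.57, SE 0.12, edgeR adjusted p = 0.00178). COL4A4 was at 2.37, 2.66 and 2.70 CPM in shLuc and 1.81, 2.16 and 1.68 CPM in shWDR5, again with all silenced libraries below all controls (log2 fold change -0.44, SE 0.13, edgeR adjusted p = 0.0167). Its call was lost without shLuc replicate 3, without shWDR5 replicate 3 and with DESeq2 (adjusted p = 0.0562, 0.0613 and 0.0525). At 0.372 ± 0.0329 and 0.249 ± 0.0175 RPKM in shLuc, this pair was the scarcest of the type IV genes. COL4A5 (hg19 chrX:107683074-107940775, plus strand) was at 93.0, 99.7 and 94.2 CPM in shLuc and 162, 155 and 158 CPM in shWDR5, a 1.66-fold rise (log2 fold change 0.73, SE 0.053, edgeR adjusted p = 1.98e-06). COL4A6 (hg19 chrX:107398837-107682727, minus strand) was at 21.2, 19.5 and 19.4 CPM in shLuc and 49.5, 45.1 and 44.7 CPM in shWDR5 and rose 2.32-fold (log2 fold change 1.21, SE 0.070, edgeR adjusted p = 4.79e-07). Neither gene of this pair had overlapping groups.

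**Figure D4:**
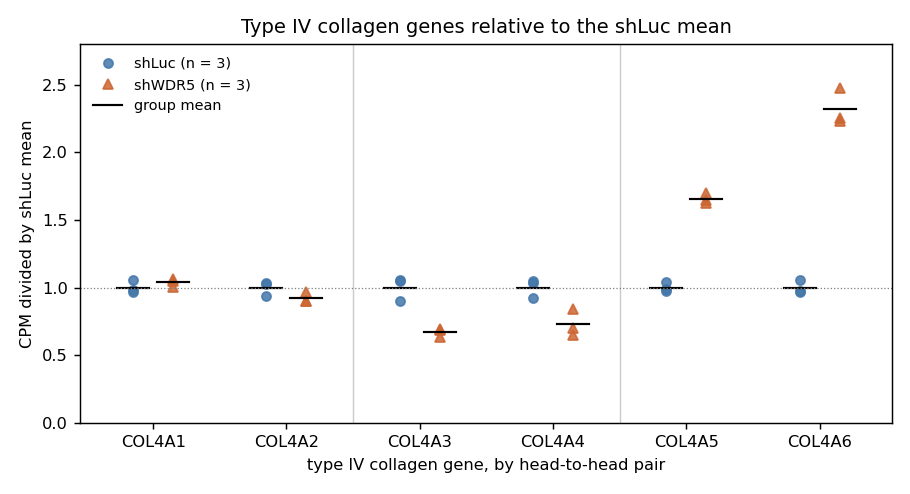
CPM of each type IV collagen gene in each library divided by the gene's shLuc mean (dotted line at 1), with circles for shLuc, triangles for shWDR5, bars for group means and vertical lines between head-to-head pairs. COL4A1 and COL4A2 stay near 1, COL4A3 and COL4A4 lie below it, and COL4A5 and COL4A6 lie above it with folds of 1.66 and 2.32.

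Within the type IV pairs, the balance of chains was compared per length. The COL4A1 to COL4A2 ratio was 0.311 ± 0.0128 in shLuc and 0.350 ± 0.00947 in shWDR5, and the COL4A5 to COL4A6 ratio was 5.07 ± 0.383 and 3.62 ± 0.137 (n = 3 each). The former was higher and the latter lower in every silenced library than in every control. These ratios are descriptions and were given no test.

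Of 7 fibrillar genes tested, 4 were called higher (COL27A1, COL11A2, COL24A1 and COL2A1), 1 lower (COL1A1) and 2 neither, and COL24A1 and COL2A1 are the pair that passed the filter only through shWDR5. COL27A1, a minor fibrillar collagen known from cartilage (hg19 chr9:116917825-117074796, plus strand), was the most abundant of them in both groups and stood at 50.3, 54.4 and 49.8 CPM in shLuc and 117, 108 and 112 CPM in shWDR5. It rose 2.18-fold with no overlap (log2 fold change 1.13, SE 0.061, edgeR adjusted p = 3.25e-07). COL11A2, a chain of the type XI collagen that nucleates cartilage fibrils, was at 3.20, 2.40 and 2.08 CPM in shLuc and 6.65, 5.75 and 5.36 CPM in shWDR5 and rose 2.29-fold (log2 fold change 1.19, SE 0.15, edgeR adjusted p = 7.61e-05). COL1A1, the main chain of type I collagen (hg19 chr17:48261457-48279000, minus strand), was at 22.7, 22.1 and 21.4 CPM in shLuc and 17.4, 14.3 and 15.2 CPM in shWDR5. All silenced libraries lay below all controls, a 1.41-fold reduction (log2 fold change -0.50, SE 0.082, edgeR adjusted p = 0.000438). The type V chains, which regulate fibril width, were not called. COL5A2 was at 7.79, 6.68 and 7.14 CPM in shLuc and 6.52, 5.86 and 6.48 CPM in shWDR5, with every silenced library below every control by a small margin (log2 fold change -0.20, 95% interval -0.40 to -0.00025, edgeR adjusted p = 0.0815). It was called lower with library size as the sole scaling (edgeR adjusted p = 0.0304). COL5A3 was at 12.9, 11.9 and 10.6 CPM in shLuc and 12.3, 10.0 and 11.1 CPM in shWDR5, with overlap (log2 fold change -0.086, 95% interval -0.31 to 0.13, edgeR adjusted p = 0.492). COL24A1 had 4, 3 and 6 reads in shLuc and 17, 43 and 25 in shWDR5 (log2 fold change 2.46, SE 0.41, edgeR adjusted p = 0.000525). COL2A1, the type II cartilage collagen, had 11, 7 and 8 reads in shLuc and 29, 20 and 18 in shWDR5 (log2 fold change 1.15, SE 0.33, edgeR adjusted p = 0.0115). The group means of both were below 0.1 RPKM.

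Type VI genes encode chains of the beaded microfibrils found between basement membrane and stroma, and of 4 tested 2 were called higher (COL6A3 and COL6A6, the latter tested only through its shWDR5 libraries) and none lower. COL6A1 was the main one at 16.7, 16.1 and 15.02 CPM in shLuc and 19.4, 16.3 and 19.8 CPM in shWDR5. The groups overlapped and it was not called (log2 fold change 0.22, 95% interval 0.020 to 0.41, edgeR adjusted p = 0.0578). It was called higher without shLuc replicate 1, without shWDR5 replicate 2 and with DESeq2 (adjusted p = 0.0381, 0.0145 and 0.0454). COL6A2 was at 1.36, 0.980 and 1.07 CPM in shLuc and 1.42, 1.06 and 1.10 CPM in shWDR5, overlapping and not called (log2 fold change 0.052, 95% interval -0.36 to 0.47, edgeR adjusted p = 0.834). COL6A3, the long chain whose end is released as endotrophin (hg19 chr2:238232655-238322850, minus strand), was at 0.648, 0.799 and 0.595 CPM in shLuc and 2.55, 2.09 and 2.14 CPM in shWDR5. It rose 3.32-fold without overlap (log2 fold change 1.73, SE 0.17, edgeR adjusted p = 1.16e-05), yet stayed at 0.211 ± 0.0233 RPKM. Per length, the COL6A3 to COL6A1 ratio was 0.0169 ± 0.00240 in shLuc and 0.0484 ± 0.00498 in shWDR5. That of COL6A1 to COL6A2 was 14.7 ± 2.12 and 16.1 ± 2.23, with overlap. COL6A6 had 10, 4 and 9 reads in shLuc and 18, 19 and 21 in shWDR5 (log2 fold change 1.12, SE 0.33, edgeR adjusted p = 0.0136), a call lost without shLuc replicate 2 (edgeR adjusted p = 0.0529), and COL6A5 had 1 read in each group.

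The FACIT genes encode collagens that sit on fibril surfaces. Of the 5 tested, 2 were called higher (COL9A2 and COL22A1), 2 lower (COL9A3 and COL16A1) and 1 neither. The type IX genes moved in opposite directions. COL9A3 (hg19 chr20:61448414-61472511, plus strand) was at 141, 145 and 143 CPM in shLuc and 79.7, 65.9 and 72.0 CPM in shWDR5. It fell 1.97-fold with no overlap (log2 fold change -0.98, SE 0.070, edgeR adjusted p = 1.74e-06). Its share of collagen mRNA went from 12.3% to 5.03%. Its exons share 146 bases with TCFL5, a gene on the opposite strand, which was not called (log2 fold change 0.11, SE 0.066, edgeR adjusted p = 0.184). COL9A2 was at 0.789, 1.60 and 1.04 CPM in shLuc and 3.54, 2.97 and 3.46 CPM in shWDR5 and rose 2.95-fold (log2 fold change 1.56, SE 0.20, edgeR adjusted p = 9.17e-05), from 0.404 ± 0.146 to 1.17 ± 0.109 RPKM. COL9A1, which encodes the remaining type IX chain, had no read in any library. COL16A1, found in matrix around smooth muscle and epithelium, was at 262, 250.3 and 252 CPM in shLuc and 213, 197 and 199 CPM in shWDR5 and fell 1.26-fold (log2 fold change -0.33, SE 0.053, edgeR adjusted p = 0.000398). COL22A1, known from tissue junctions such as that of muscle and tendon, was at 3.95, 3.09 and 2.87 CPM in shLuc and 9.67, 6.53 and 9.26 CPM in shWDR5 and rose 2.54-fold (log2 fold change 1.34, SE 0.17, edgeR adjusted p = 7.13e-05). COL12A1, the FACIT gene with most reads, was at 776, 779 and 772 CPM in shLuc and 731, 786 and 710.0 CPM in shWDR5. Its groups overlapped, and its interval excludes a change of 1.5 times (log2 fold change -0.064, 95% interval -0.18 to 0.054, edgeR adjusted p = 0.335).

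Of the remaining classes, COL8A1, a short-chain network collagen of vessels and the cornea (hg19 chr3:99357440-99515577, plus strand), was at 259, 273 and 250.3 CPM in shLuc and 371, 339 and 371 CPM in shWDR5 and rose 1.38-fold without overlap (log2 fold change 0.47, SE 0.058, edgeR adjusted p = 6.93e-05). COL18A1, the heparan sulphate proteoglycan of basement membranes that yields endostatin, was at 144, 147 and 131 CPM in shLuc and 142, 124 and 130.2 CPM in shWDR5, with overlap and no call (log2 fold change -0.091, 95% interval -0.24 to 0.059, edgeR adjusted p = 0.28).

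The other 17 genes were below the filter. COL9A1 was at 0 in every library, which allows up to 3 reads per library, or 0.0528 to 0.0774 CPM, by counting error alone. The other 16 (COL1A2, COL3A1, COL5A1, COL11A1, COL6A5, COL23A1, COL25A1, COL14A1, COL19A1, COL20A1, COL21A1, COL15A1, COL10A1, COL8A2, COL26A1 and COL28A1) had 1 to 58 reads over all libraries and at most 20 in 1 library. In 7 of these 16, all shWDR5 libraries lay above all shLuc libraries in CPM, and in none did all lie below. Over all 5668 genes below the filter with a read 11.6% had all shWDR5 libraries above (656) and 254 had all below. The 7, named after their values were seen, were COL11A1 (0, 0 and 0 reads in shLuc and 6, 7 and 5 in shWDR5), COL1A2 (0, 0 and 0 reads in shLuc and 1, 4 and 2 in shWDR5), COL14A1 (3, 8 and 4 reads in shLuc and 10, 15 and 14 in shWDR5), COL21A1 (6, 5 and 3 reads in shLuc and 16, 8 and 20 in shWDR5), COL10A1 (4, 1 and 3 reads in shLuc and 9, 12 and 10 in shWDR5), COL8A2 (7, 3 and 2 reads in shLuc and 9, 14 and 14 in shWDR5) and COL28A1 (4, 0 and 3 reads in shLuc and 7, 8 and 4 in shWDR5). The number of genes with at least 1 read was also higher in shWDR5 (19827 to 20042) than in shLuc (19263 to 19578). All shWDR5 libraries (46097058 to 57640167 reads) were deeper than shLuc replicates 2 and 3 (38218108 and 39327358), and shLuc replicate 1 (48500509) was deeper than shWDR5 replicates 1 and 3. The part of this in the 7 genes was not tested.

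Genes that make and handle collagen were read from the same fit in 4 lists of 50 genes in all. Of these, 47 passed the filter, 19 were called higher and 18 lower, beside 26.6% and 29.9% of all genes tested. The 19 include MMP8 and MMP13, which passed only through their shWDR5 libraries, so that a difference was built into their being tested. Among the proteins that modify and fold the chains, 9 of 19 were higher, 6 lower and 4 not called (median log2 fold change 0.11). P4HA1 and P4HA2, catalytic subunits of prolyl 4-hydroxylase, which stabilizes the helix, rose 1.57-fold and 1.53-fold (log2 fold change 0.65, SE 0.078, edgeR adjusted p = 5.31e-05, and log2 fold change 0.61, SE 0.066, edgeR adjusted p = 2.50e-05). P3H3, a prolyl 3-hydroxylase family member, was at 3.66, 3.28 and 2.65 CPM in shLuc and 0.518, 0.845 and 0.441 CPM in shWDR5 and fell 5.20-fold (log2 fold change -2.38, SE 0.22, edgeR adjusted p = 8.38e-06). CRTAP, the partner of prolyl 3-hydroxylase 1, fell 1.63-fold (log2 fold change -0.70, SE 0.055, edgeR adjusted p = 2.99e-06). TMEM38B, an endoplasmic reticulum cation channel, fell 1.64-fold (log2 fold change -0.72, SE 0.079, edgeR adjusted p = 3.13e-05). COLGALT2, a collagen galactosyltransferase, fell 1.72-fold from a low level (log2 fold change -0.78, SE 0.18, edgeR adjusted p = 0.00333).

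Among the genes for procollagen processing and crosslinking, 1 of 12 was higher, 8 were lower and 3 not called (median log2 fold change -0.55). The 1 was BMP1, the procollagen C-proteinase, at 39.0, 39.8 and 36.7 CPM in shLuc and 75.0, 60.8 and 68.3 CPM in shWDR5 (log2 fold change 0.82, SE 0.080, edgeR adjusted p = 1.27e-05). Both enhancers of that proteinase fell, PCOLCE by 3.16-fold (log2 fold change -1.66, SE 0.17, edgeR adjusted p = 2.16e-05) and PCOLCE2 by 2.37-fold (log2 fold change -1.24, SE 0.074, edgeR adjusted p = 5.73e-07). PCOLCE was low, with a mean of 2.23 CPM in shLuc and 0.712 CPM in shWDR5. PCOLCE2 was at 14.3, 13.8 and 13.98 CPM in shLuc and 5.63, 6.05 and 6.13 CPM in shWDR5. The proteinase homologue TLL1 (log2 fold change -1.02, SE 0.27, edgeR adjusted p = 0.00799), the N-proteinase ADAMTS3 (log2 fold change -0.63, SE 0.13, edgeR adjusted p = 0.00191) and the lysyl oxidase homologue LOXL3 (log2 fold change -0.92, SE 0.081, edgeR adjusted p = 6.52e-06) were also lower. TLL1 was scarce, with 42, 48 and 27 reads in shLuc and 21, 30 and 16 in shWDR5. The 8 lower genes included LOXL1, LOXL2, LOXL3 and LOXL4, whereas LOX itself was not called (log2 fold change 0.019, 95% interval -0.25 to 0.29, edgeR adjusted p = 0.904).

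Of 7 collagen receptor genes tested, 3 were higher, 2 lower and 2 not called. DDR1, the epithelial collagen receptor kinase, was at 550.5, 535 and 509 CPM in shLuc and 877, 810.4 and 799.6 CPM in shWDR5 and rose 1.56-fold (log2 fold change 0.64, SE 0.056, edgeR adjusted p = 6.43e-06). Its homologue DDR2 rose from a low level (log2 fold change 0.66, SE 0.18, edgeR adjusted p = 0.0109). ITGB1, the shared beta subunit of the collagen-binding integrins, rose 1.27-fold (log2 fold change 0.35, SE 0.074, edgeR adjusted p = 0.00244). The alpha subunits ITGA10 and ITGA1 fell (log2 fold change -1.11, SE 0.094, edgeR adjusted p = 5.01e-06, and log2 fold change -0.34, SE 0.11, edgeR adjusted p = 0.025). ITGA2 was not called (log2 fold change 0.086, 95% interval -0.065 to 0.24, edgeR adjusted p = 0.311).

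Of 9 protease genes that cleave collagen or its fragments, 6 were higher, 2 lower and 1 not called. MMP9, a gelatinase that also cleaves type IV collagen, was at 6.56, 6.32 and 5.28 CPM in shLuc and 89.3, 59.3 and 84.5 CPM in shWDR5. It rose 12.8-fold, with all silenced libraries far above all controls (log2 fold change 3.68, SE 0.16, edgeR adjusted p = 1.19e-07). MMP1, the interstitial collagenase, was at 39.9, 42.4 and 34.9 CPM in shLuc and 22.6, 26.0 and 24.4 CPM in shWDR5 and fell 1.61-fold (log2 fold change -0.68, SE 0.085, edgeR adjusted p = 6.71e-05). MMP16 and CTSK (cathepsin K) rose (log2 fold change 0.77, SE 0.11, edgeR adjusted p = 0.000136, and log2 fold change 0.58, SE 0.097, edgeR adjusted p = 0.000523). MMP8 (5, 1 and 0 reads in shLuc and 36, 43 and 29 in shWDR5) and MMP13 (3, 5 and 7 reads in shLuc and 13, 15 and 20 in shWDR5), both collagenases, were called higher but passed the filter only through shWDR5, and without them 4 of 7 were higher.

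**Figure D5:**
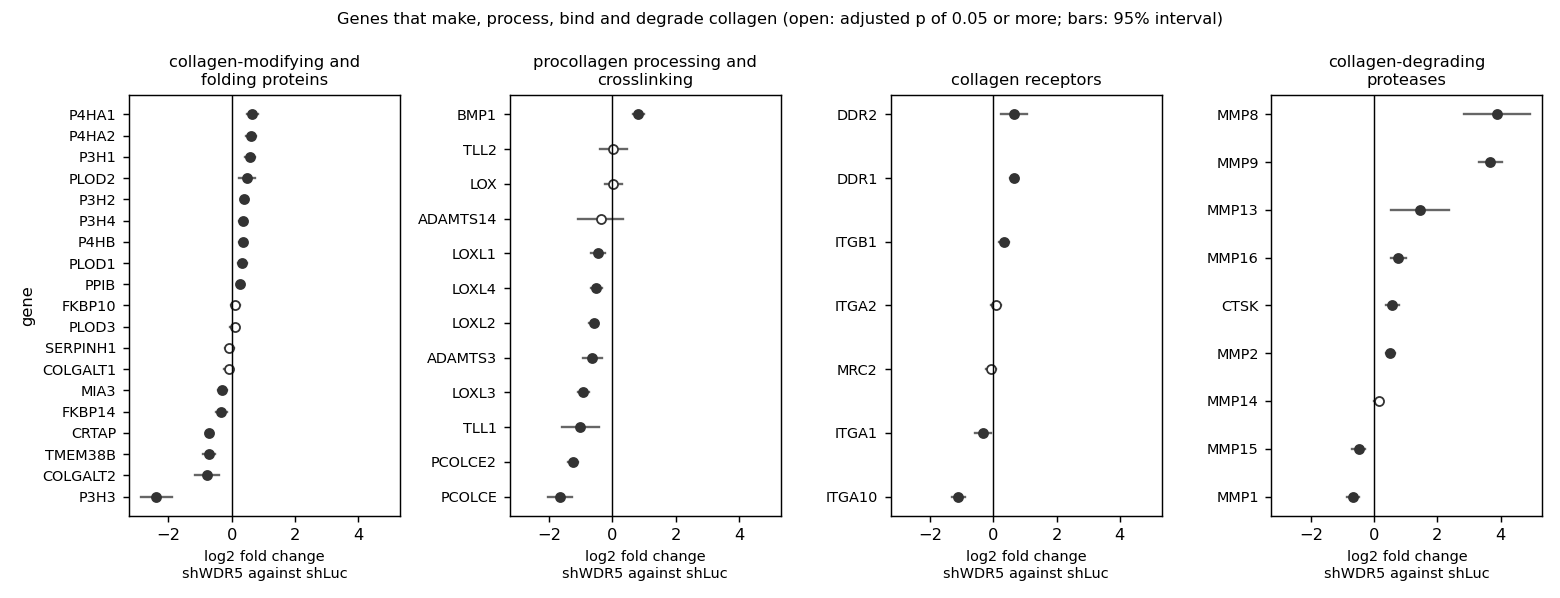
Log2 fold change (shWDR5 against shLuc) with 95% confidence interval for the 47 tested genes of the 4 lists, with filled points for adjusted p below 0.05 and open points otherwise. In the processing and crosslinking panel 8 of 12 points are filled and left of 0, and MMP8 and MMP9 are the furthest right with log2 fold changes of 3.89 and 3.68.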

How the data were processed

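PolyA-selected RNA from 3 shLuc and 3 shWDR5 samples was sequenced by the authors (TruSeq libraries, Illumina). According to the submitters' processing notes, reads were aligned with TopHat2 2.1.0 to hg19 and counted per gene with featureCounts. The deposited table holds these raw counts, not normalized, with the exonic length of each gene. Whether counting used strand is not given in the sources used here, and reads in exons shared with another gene (COL9A3 with TCFL5, COL4A2 with COL4A2-AS1) could be dropped or misassigned. A second deposited table holds the authors' own edgeR comparison (fold changes and p-values) and was not used.

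Genes were filtered with filterByExpr (minimum count 10), scaled by TMM and tested with edgeR 4.0.16 (glmQLFit, glmQLFTest, group as the sole term, all 6 libraries) in R 4.3.3, with Benjamini-Hochberg adjustment over all genes tested. SEs were taken as the absolute log2 fold change over the square root of F, and 95% intervals from them. RPKM is the TMM-scaled CPM per 1000 exonic bases. Deviations of same-numbered libraries from their group means correlated at 0.372, 0.0358 and 0.116, so numbers were not taken as pairs. No replicate pair agreed within sampling noise. DESeq2 1.42.0 and limma-voom 3.58.1 were alternatives. All members that passed the filter were named, with up to 6 called genes of each pathway list by absolute log2 fold change. Members and lists were chosen with earlier results of these data known. RefSeq promoter windows matched 32 of 44 members. Windows were not used for COL14A1, COL1A1, COL1A2, COL20A1, COL22A1, COL2A1, COL3A1, COL5A2, COL6A1, COL6A5, COL8A1, COL9A3.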

Additional observations from a re-analysis of the deposited data

How the results depend on the processing

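Over 13 refits of the 27 genes tested, 325 of 348 log2 fold changes kept their direction and their side of the threshold. None of the 18 called genes turned direction. COL4A1 turned with library size as the sole scaling (log2 fold change -0.0016, not called), as did COL6A2 (-0.0054), which also turned without shLuc replicate 2 (-0.050) and without shWDR5 replicate 1 (-0.089); leaving out 1 library at a time, its values ran from that to 0.23. The calls lost were those of COL4A4 and COL6A6, and those gained COL4A2, COL5A2, COL6A1 and COL13A1. The cause of each was not tested. With the study's thresholds, which require a larger change and level, 2766 of all genes, 9 collagen chain genes and 15 pathway genes were called in place of 9112, 18 and 37. The other alternatives called 16 to 22 collagen chain genes and 8120 to 10412 of all genes. Without length scaling, COL4A1 to COL4A2 was 0.370 in shLuc and 0.416 in shWDR5, COL4A5 to COL4A6 3.42 in shWDR5 and COL6A3 to COL6A1 0.0427 and 0.123, by construction.

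A fit with the replicate block called 4901 genes higher and 5511 lower (10412 in all), with 22 collagen chain genes (14 higher, 8 lower) and 40 pathway genes. It added calls for COL13A1, COL4A2, COL5A2 and COL6A1. Not every library correlated best with its own number (shLuc replicate 2 did so with shWDR5 replicate 3, r = 0.21), but the replicate 1 libraries did (r = 0.372). Within groups, chi-square over its degrees of freedom was 14.4 to 18.4 for pairs with replicate 1, beside 7.64 (shLuc) and 7.21 (shWDR5) for replicates 2 and 3. The labels do not say whether same-numbered libraries shared a batch, and this was not tested. Depth limits the 17 genes below the filter, where a group at 0 reads allows up to 3 reads per library.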
